A study of Mus musculus with 6 samples.

Results

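The genes described here encode the proteins of the mitochondrial ribosome. They were taken as every gene whose symbol starts with Mrpl or Mrps followed by a digit, with pseudogenes left out, which gave 78 of the 31253 genes listed: 49 Mrpl genes, named for the large ribosomal subunit, and 29 Mrps genes, named for the small one. Cells sorted from mouse bone marrow were profiled by single-cell RNA sequencing in 6 samples, 3 of wild type (WT) and 3 with Txnip knocked out (Txnip-KO). The product of Txnip, thioredoxin-interacting protein, binds thioredoxin and limits glucose uptake. The labels give no other genetic change, treatment, age or sex, do not say how or in which cells Txnip was deleted, do not name the sorted population, and leave unsaid whether each sample is a different animal. The p-values thus rest on the spread among these 6 samples alone, and that spread may be technical.

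Mitochondria keep a small genome of their own, whose messenger RNAs code for subunits of the respiratory chain and ATP synthase and are translated inside the organelle by a dedicated ribosome. The ribosomal RNAs of that ribosome come from mitochondrial DNA, but all of its proteins are encoded in the nucleus, made in the cytosol and imported. In bone marrow, mitochondrial translation is known to matter for the step from quiescent to dividing stem and progenitor cells and for red cell formation.

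All 78 genes were found by identifier in GENCODE release M21 (build GRCm38), all of them as protein-coding genes with the same symbol, spread over 17 chromosomes with 11 on chromosome 11 and 8 on chromosome 17. A protein-coding gene starts within 1000 bases upstream on the other strand at 18 of the 78 genes (23.1%), against 6.79% of the 21951 protein-coding genes. One such pair is Mrpl54 and Apba3, 26 bases apart, another Mrps18c and the helicase gene Helq, 29 bases apart. On the same strand, 13 of the 78 overlap another annotated gene, among them Mrps6, which lies over Slc5a3, Mrps24 over Urgcp and Mrps34 over Nme3. Reads from such pairs can be split or shared by the counting, and these genes are uncertain to that extent. On the other strand 36 of the 78 overlap a gene, and nothing in the sources used here says whether counting took strand into account.

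The promoters were read because the Mrp genes moved together in the comparison described further on. RefSeq windows on GRCm38.p6, from 250 bases before to 50 after the start, were given for 69 of the 78 genes and for 27025 genes in all. The letters CCGGAAG, the core bound by ETS factors, were present on either strand in 37.7% of the 69 Mrp windows, in 9.93% of all windows and in 12.9% of those of protein-coding genes. GCGCA followed by any base and GCGC, the core of the site of nuclear respiratory factor NRF1, a regulator of nuclear genes for mitochondria, was present in 18.8% of Mrp windows, 5.19% of all and 7.17% of those of protein-coding genes. AAGATGGCG, the YY1 core, was present in 11.6% against 1.64% of all and 2.14% of protein-coding windows. By contrast the E-box CACGTG, at 7.25% against 8.09%, and the TATA letters TATAAA, at 7.25% against 15.7%, were no more frequent in the Mrp windows than in all. At least 1 of the ETS, NRF1 and YY1 letter strings was present in 59.4% of the Mrp windows, 15.1% of all and 19.96% of those of protein-coding genes. Both the ETS and the NRF1 string were held by 4 Mrp windows. A match describes letters and is neither a tested binding site nor a cause.

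Stretches of 150 bases, from 130 before to 20 after the annotated start, are printed 5′ to 3′ for 5 of the genes that fell most in Txnip-KO and for 2 of the abundant genes that did not pass the test, to show that a string can stand in either kind. Such stretches were read for 11 of the genes that fell most, of which 5 hold a string, and for the 5 uncalled genes of highest level, of which 3 do. Capitals mark ETS strings in Mrps22, Mrpl58 and, as the reverse complement, Mrpl52, and NRF1 strings in Mrpl39 and, as the reverse complement, Mrps21 and Mrpl30, and the stretch of Mrps15 holds none of the ETS, NRF1 and YY1 strings. They are Mrps22 at chr9:98601660-98601809 on the minus strand, Mrpl58 at chr11:115403622-115403771 on the plus strand and Mrpl39 at chr16:84735225-84735374 on the minus strand. Mrps21 is at chr3:95871495-95871644 on the minus strand and Mrps15 at chr4:126046798-126046947 on the plus strand. The genes that did not pass are Mrpl52 at chr14:54426779-54426928 on the plus strand and Mrpl30 at chr1:37890347-37890496 on the plus strand.
Mrps22: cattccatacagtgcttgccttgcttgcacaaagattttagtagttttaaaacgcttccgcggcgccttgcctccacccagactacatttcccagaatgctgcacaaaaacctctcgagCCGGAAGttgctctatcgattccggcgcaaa
Mrpl58: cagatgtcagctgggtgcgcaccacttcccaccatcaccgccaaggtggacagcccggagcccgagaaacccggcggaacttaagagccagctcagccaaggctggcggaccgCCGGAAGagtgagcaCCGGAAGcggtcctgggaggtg
Mrpl39: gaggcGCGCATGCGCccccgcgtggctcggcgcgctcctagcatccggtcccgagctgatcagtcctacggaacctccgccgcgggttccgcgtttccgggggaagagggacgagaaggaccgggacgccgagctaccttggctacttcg
Mrps21: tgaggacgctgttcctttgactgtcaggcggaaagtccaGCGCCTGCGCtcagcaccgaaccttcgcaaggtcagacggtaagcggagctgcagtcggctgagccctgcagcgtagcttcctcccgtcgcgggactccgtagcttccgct
Mrps15: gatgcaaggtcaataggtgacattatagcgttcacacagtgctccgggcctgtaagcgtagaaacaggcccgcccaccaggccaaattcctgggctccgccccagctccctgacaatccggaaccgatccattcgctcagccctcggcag
Mrpl52: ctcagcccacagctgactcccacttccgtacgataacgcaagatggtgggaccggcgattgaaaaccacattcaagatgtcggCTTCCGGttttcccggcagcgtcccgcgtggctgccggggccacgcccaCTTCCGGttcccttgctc
Mrpl30: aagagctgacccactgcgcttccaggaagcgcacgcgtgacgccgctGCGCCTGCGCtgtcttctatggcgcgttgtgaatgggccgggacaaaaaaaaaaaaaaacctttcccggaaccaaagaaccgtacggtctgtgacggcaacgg

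After filtering, 41513 cells were kept, 6023 to 7827 per sample, and libraries shared at most 18 barcodes. Median UMIs (unique molecular identifiers, counted molecules) per kept cell were 8918 to 9177 in WT and 6932 to 8187 in Txnip-KO. Txnip itself was at 209 to 305 CPM (counts scaled to a common library size) in WT and 10.8, 9.60 and 0.459 CPM in Txnip-KO 1, 2 and 3. The first and second of these hold 585 and 666 Txnip UMIs, the third 28. Cells were put into 13 types by the number of fixed marker genes with a UMI, and cells in no gate made up 18.4 to 21.1% of WT and 22.5 to 32.9% of Txnip-KO cells. Cells passing both the T and the NK gate were counted as T. In the T type 7 of the 9 NK markers were also at least 2-fold higher, so it may hold NK-like cells. Of the 5 lymphoid-primed markers, 4 were at least 2-fold higher in plasmacytoid dendritic cells and 3 in early B-lineage cells. Those 2 types may hold lymphoid-primed cells. In Txnip-KO 1 basophils were 6.72% of kept cells, against 1.97% and 1.84% in the other two Txnip-KO samples and 9.34 to 10.8% in WT, and neutrophils were 4.43%, against 0.268% and 1.49% in the other two and 0.382 to 0.598% in WT.

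Over all kept cells the Mrp transcripts together made up 6647 ± 198 CPM in WT against 5488 ± 226 CPM in Txnip-KO (SD, n = 3 each), so the Txnip-KO level was 82.6% of the WT level. By sample the summed level was 6433, 6826 and 6681 CPM in WT 1, 2 and 3 and 5245, 5692 and 5526 CPM in Txnip-KO 1, 2 and 3. The groups did not overlap. Per cell the mean was 66.7, 69.4 and 68.3 Mrp UMIs in WT and 47.2, 50.4 and 44.0 in Txnip-KO. These means also carry depth, since the mean of all UMIs per cell was 10369, 10165 and 10227 in WT and 8991, 8862 and 7964 in Txnip-KO. With mitochondrially encoded and cytosolic ribosomal transcripts left out of the total, the Txnip-KO level was 83.9% of WT. Molecules were counted at the 3′ end, so counts do not grow with transcript length. On that scale Mrpl33 was the most abundant in WT at 325 CPM scaled by total UMIs, followed by Mrpl52 at 278, Mrps14 at 201, Mrpl23 at 200.02 and Mrps33 at 175, and these 5 held 17.8% of all Mrp UMIs. Of the 78 genes 23 were at 100 CPM or more, 54 between 10 and 100, and Mrpl53 was below 1.

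Nearly all Mrp genes were lower in Txnip-KO. Tested on counts summed per sample with edgeR's quasi-likelihood test (14648 genes, p-values adjusted by Benjamini-Hochberg), 66 of the 78 fell and 1 rose at an adjusted p under 0.05, where 19.3% of all genes tested fell and 21.8% rose. The median log2 fold change, Txnip-KO over WT, was -0.38 for the Mrp genes and 0.037 for all genes. All 78 passed the filter on low counts. A log2 fold change below 0 was found for 77 of them, against 46.6% of all genes. For 73 of them every Txnip-KO sample was below every WT sample, a pattern seen in 26.1% of all genes. With cell numbers per type made equal across samples, 74 fell, against 22.95% of all genes in that fit. With only cells called G1, 45 fell with a median of -0.29, against 15.0% of all genes. With each cell thinned to 1000 UMIs, 23 of 77 (29.9%) fell with a median of -0.27, against 10.8% of all genes, and the summed level was 5981 ± 155 CPM in WT against 5082 ± 243 in Txnip-KO. Cells called S or G2M were 44.4% of WT and 33.8% of Txnip-KO cells, and the part of this difference in the fall was not tested beyond the fit on G1 cells.

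**Figure D1:**
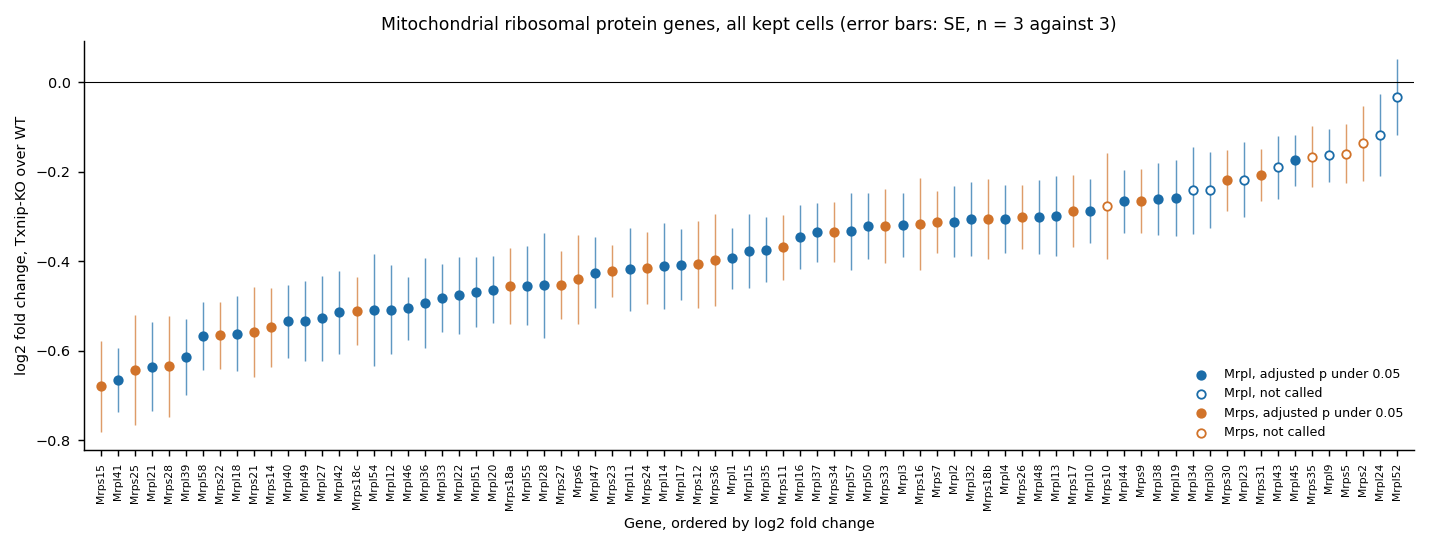
Log2 fold change (Txnip-KO over WT, y axis) of each Mrp gene over all kept cells, ordered along the x axis, with the standard error, n = 3 samples against 3, Mrpl blue and Mrps orange, filled where the adjusted p is under 0.05. All 77 genes shown lie below 0, from Mrps15 at -0.68 to Mrpl52 at -0.033, and Mrpl53, at under 1 CPM, is left out.

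Among small-subunit genes the largest fall was that of Mrps15, whose product binds the small ribosomal RNA. In TMM-scaled CPM, used for single genes from here on, it stood at 88.4, 89.5 and 88.4 in WT and 46.6, 61.8 and 57.8 in Txnip-KO. The WT samples lay close together and all Txnip-KO samples were below them (log2 fold change -0.68, SE 0.10; adjusted p = 0.00236, edgeR). Mrps25, a small-subunit protein without a bacterial counterpart, stood at 57.9, 63.8 and 60.5 CPM in WT against 31.6, 39.4 and 45.7 in Txnip-KO (-0.64, SE 0.12). Mrps28 stood at 85.9, 98.7 and 103 CPM in WT against 58.3, 71.8 and 55.3 in Txnip-KO (-0.64, SE 0.11). Both fell without overlap between the groups, with adjusted p = 0.00535 and 0.00414 by edgeR. Mrps22, defects of which cause mitochondrial disease in humans, went from 30.7 ± 0.314 to 20.8 ± 1.76 CPM (SD, n = 3; log2 fold change -0.57). Mrps21 went from 148 ± 10.7 to 100.4 ± 12.1 CPM (-0.56) and Mrps14, the third most abundant of the 78, from 209 ± 8.98 to 143 ± 15.0 CPM (-0.55). Txnip-KO 1 was the lowest Txnip-KO sample for Mrps15, Mrps25, Mrps22, Mrps21 and Mrps14, and Txnip-KO 3 for Mrps28.

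Among large-subunit genes Mrpl41, which has no bacterial counterpart, fell the most. It stood at 71.7, 79.1 and 74.5 CPM in WT against 44.3, 49.3 and 48.6 in Txnip-KO, with a wide gap between the groups (log2 fold change -0.66, SE 0.071; adjusted p = 0.00105, edgeR). Mrpl21 stood at 91.1, 97.6 and 95.9 CPM in WT against 51.9, 67.5 and 63.8 in Txnip-KO (-0.64, SE 0.099; adjusted p = 0.00276, edgeR). Mrpl39 went from 34.6 ± 2.12 to 22.6 ± 2.09 CPM (SD, n = 3; log2 fold change -0.61) and Mrpl58 from 71.0 ± 1.81 to 47.9 ± 4.11 CPM (-0.57). Mrpl58 is a peptidyl-tRNA hydrolase that frees peptides from stalled mitochondrial ribosomes and is built into the large subunit. Mrpl18 and Mrpl40, both at the central protuberance of the large subunit, went from 173 ± 5.61 to 117 ± 11.5 CPM (-0.56) and from 62.2 ± 2.51 to 42.9 ± 4.01 CPM (-0.53). Mrpl33, the most abundant, stood at 310, 349 and 352 CPM in WT against 235, 251 and 239 in Txnip-KO (-0.48, SE 0.075). Mrpl33 falls outside the rule for named genes here and was added for its level.

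**Figure D2:**
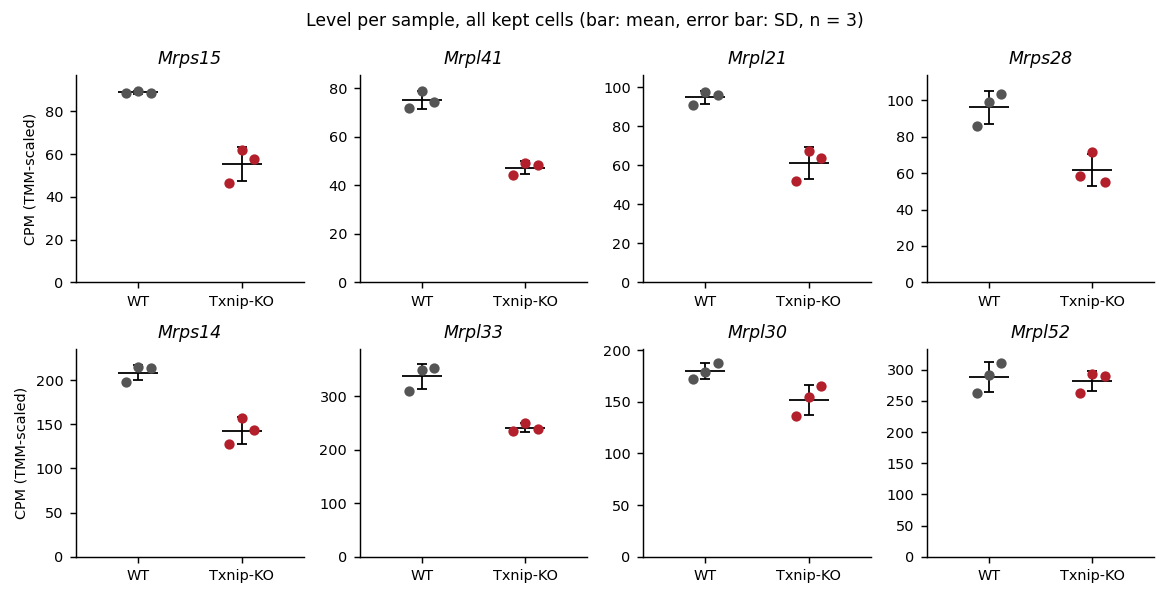
TMM-scaled CPM (y axis, from 0) of 8 Mrp genes in each WT and Txnip-KO sample over all kept cells, with points for samples and bars for mean and SD (n = 3). The groups are apart for Mrps15, Mrpl41, Mrpl21, Mrps28, Mrps14 and Mrpl33, closer for Mrpl30, which did not pass the test, and overlap for Mrpl52.

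Some abundant genes did not pass the test. Mrpl52, second in abundance, stood at 263, 292 and 310 CPM in WT against 263, 294 and 289 in Txnip-KO, with overlapping groups (log2 fold change -0.033, SE 0.084; adjusted p = 0.778, edgeR). Without WT 3 its value was 0.017. Mrpl24 also overlapped, at 116 to 128 CPM in WT against 102 to 127 in Txnip-KO (-0.12, SE 0.093). Mrpl23, at the exit of the peptide tunnel, Mrpl30 and Mrpl34 were lower in every Txnip-KO sample than in every WT sample without passing the test, with log2 fold changes of -0.22, -0.24 and -0.24 and adjusted p = 0.0685, 0.0507 and 0.0802 by edgeR. These 3 passed under several of the alternatives, such as the DESeq2 Wald test with adjusted p = 0.0260, 0.0152 and 0.0351. Mrpl53 was the only Mrp gene called higher, at 0.190, 0.260 and 0.137 CPM in WT against 0.395, 0.514 and 0.370 in Txnip-KO, from 9 to 18 UMIs per WT sample and 23 to 36 per Txnip-KO sample (log2 fold change 1.11, SE 0.32; adjusted p = 0.0239, edgeR). The DESeq2 Wald test did not call it (adjusted p = 0.0896), nor did edgeR without WT 1, WT 3 or Txnip-KO 2, and it overlaps the annotated gene Gm42688 on its strand.

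Both subunits were lower to a like extent. Of the 49 Mrpl genes 41 fell and 1 rose, with a median log2 fold change of -0.38, and of the 29 Mrps genes 25 fell, with a median of -0.37, giving a large minus small difference of -0.0078. Mrps18a and Mrps30 carry small-subunit names but sit in the large subunit of the solved structure, and Mrps36 is a component of the alpha-ketoglutarate dehydrogenase complex. Counted by structure, 43 of 51 large-subunit genes fell (median -0.38) and 22 of 26 small-subunit genes (median -0.35). The large subunit held 66.2% ± 0.132 of Mrp UMIs in WT and 66.8% ± 0.0965 in Txnip-KO (SD, n = 3). No test was made of these differences between subunits.

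Mrps18a, Mrps18b and Mrps18c are relatives of bacterial protein S18. Mrps18c went from 106 ± 4.59 to 74.4 ± 5.77 CPM (SD, n = 3; log2 fold change -0.51), Mrps18a from 59.3 ± 3.83 to 43.2 ± 3.86 (-0.46) and Mrps18b from 52.1 ± 4.02 to 42.2 ± 3.87 (-0.31). All 3 fell, and differences between them were not tested, with adjusted p = 0.00237, 0.00484 and 0.0256 by edgeR, and Mrps18b was not called without WT 2, WT 3 or Txnip-KO 3. Mrps30 fell least among the called Mrps genes after Mrps31, from 44.7 ± 0.721 to 38.4 ± 2.73 CPM (-0.22), and leaving out any sample other than Txnip-KO 2 ended its call. Mrps36 went from 86.3 ± 4.82 to 65.6 ± 8.97 CPM (-0.40) and was not called without WT 2 or WT 3. Mrpl12, a stalk protein that also binds the mitochondrial RNA polymerase, went from 153 ± 6.76 to 108 ± 14.03 CPM (-0.51). Mrps12, at the decoding centre, went from 85.6 ± 3.60 to 64.5 ± 8.38 CPM (-0.41) and was not called without WT 2.

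Genes with and without each promoter string were set side by side. The median log2 fold change was -0.41 for the 26 Mrp genes with the ETS string and -0.37 for the 43 without it. It was -0.31 for the 13 with the NRF1 string and -0.41 for the 56 without, and -0.43 for the 8 with the YY1 string and -0.39 for the 61 without. Among the stretches printed above, the ETS string stands in Mrps22 and Mrpl58, which fell, and in Mrpl52, which did not pass the test.

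Other genes of mitochondrial translation were counted from fixed lists, over the same fit in which 19.3% of all genes fell and 21.8% rose. Of 5 mitoribosome proteins without an Mrp symbol 4 fell: Chchd1 from 155 ± 9.20 to 108 ± 11.7 CPM (SD, n = 3; log2 fold change -0.53), Aurkaip1 (-0.36), Gadd45gip1 (-0.35) and Dap3 (-0.32), a GTP-binding protein of the small subunit, while Ptcd3 was at -0.038. Of 14 translation factors and mRNA-binding proteins 6 fell and 1 rose (median -0.12), among them the elongation factor gene Tufm, from 43.0 ± 2.66 to 31.5 ± 3.11 CPM (-0.45), Slirp, which steadies mitochondrial mRNAs (-0.37), and Gfm1, which moves the ribosome along (-0.39). Of 23 assembly and rRNA modification genes 10 fell and none rose (median -0.19), led by Mrm3 (-0.44), Noa1 (-0.33) and Fastkd2 (-0.38). Of 6 genes for transcription or replication of mitochondrial DNA only Tfam, which packages that DNA, passed the test, from 71.1 ± 0.373 to 54.7 ± 1.78 CPM (-0.38), and the median was -0.065, a share lower that is near that of all genes. The 13 protein genes of mitochondrial DNA itself were mixed, 3 lower and 2 higher, near the all-gene share for falls, with mt-Co1 at 0.52, mt-Atp8 at -0.55 and mt-Nd2 at -0.40. Of 79 cytosolic ribosomal protein genes tested 9 fell and 7 rose, both below the all-gene shares, with a median of -0.10.

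Across cell types in WT the summed Mrp level was highest in megakaryocytes (7885 ± 125 CPM of all UMIs) and erythroid cells (7799 ± 254), followed by granulocyte-monocyte progenitors (7296 ± 343; SD, n = 3 each). Monocytes or dendritic cells (6683 ± 329), lymphoid-primed progenitors (6514 ± 119), stem cells (6399 ± 303), plasmacytoid dendritic cells (6116 ± 220), early B-lineage cells (6106 ± 149) and innate lymphoid cells (6021 ± 235) formed a run in which each overlapped its neighbour over the samples. T cells stood at 5577 ± 495 and NK cells at 5522 ± 91.8. Basophils (4609 ± 246) and neutrophils (2147 ± 437) were lowest, each without overlap with the type above. Among the higher types the step from granulocyte-monocyte progenitors (6979 to 7660 CPM) to monocytes or dendritic cells (6312 to 6940) was also without overlap, while megakaryocytes (7794 to 8028) and erythroid cells (7507 to 7963) overlapped. The order went along with the share of WT cells called S or G2M, which was 72.8% in megakaryocytes, 66.3% in erythroid cells, 24.2% in NK cells and 28.8% in basophils (Pearson r = 0.74, Spearman rho = 0.88 over 13 types of the same 3 libraries, as a description). Median UMIs per cell also differed, from 2256 in basophils to 16478 in erythroid cells. Thinned to 1000 UMIs per cell, megakaryocytes stood at 7529, erythroid cells at 7396, NK cells at 5422 and basophils at 4047 CPM.

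**Figure D3:**
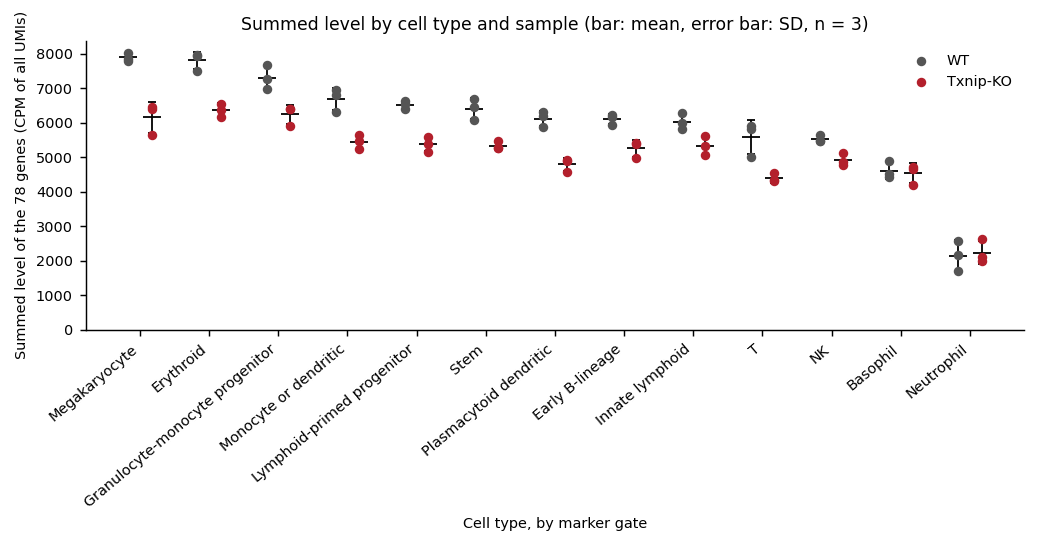
Summed level of the 78 Mrp genes (y axis, CPM of all UMIs, from 0) by cell type (x axis, ordered by the WT mean) in WT (grey) and Txnip-KO (red), with points for samples and bars for mean and SD (n = 3). Every Txnip-KO sample lies below every WT sample in 11 of the 13 types, and the groups overlap in basophils and neutrophils.

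The make-up of the Mrp pool differed between cell types. For the 77 genes of at least 10 CPM, the median ratio of the highest to the lowest type's share of Mrp UMIs was 1.74 over 12 types, and 24 genes had a ratio of 2 or more. Mrpl33 held 10.4% ± 0.404 of Mrp UMIs in WT basophils and 3.001% ± 0.161 in erythroid cells (SD, n = 3). Mrpl52 ran the other way in erythroid cells, at 7.60% ± 0.332, and was lowest in early B-lineage cells at 2.21% ± 0.172. Mrps28 was at 1.77% ± 0.176 in erythroid cells and 0.578% ± 0.0576 in NK cells, and Mrpl58 at 2.50% ± 0.517 in T cells and 0.725% ± 0.0271 in erythroid cells. Mrps6 had the widest ratio, 4.79, from 0.824% ± 0.0360 in early B-lineage cells to 0.172% ± 0.0451 in basophils, and shares its strand with Slc5a3. In 75 of the 77 genes the samples of the highest and the lowest type did not overlap, which follows in part from picking the extremes. The large subunit's share of Mrp UMIs stayed between 63.2% and 67.9% in the 12 types with at least 60 Mrp genes tested.

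**Figure D4:**
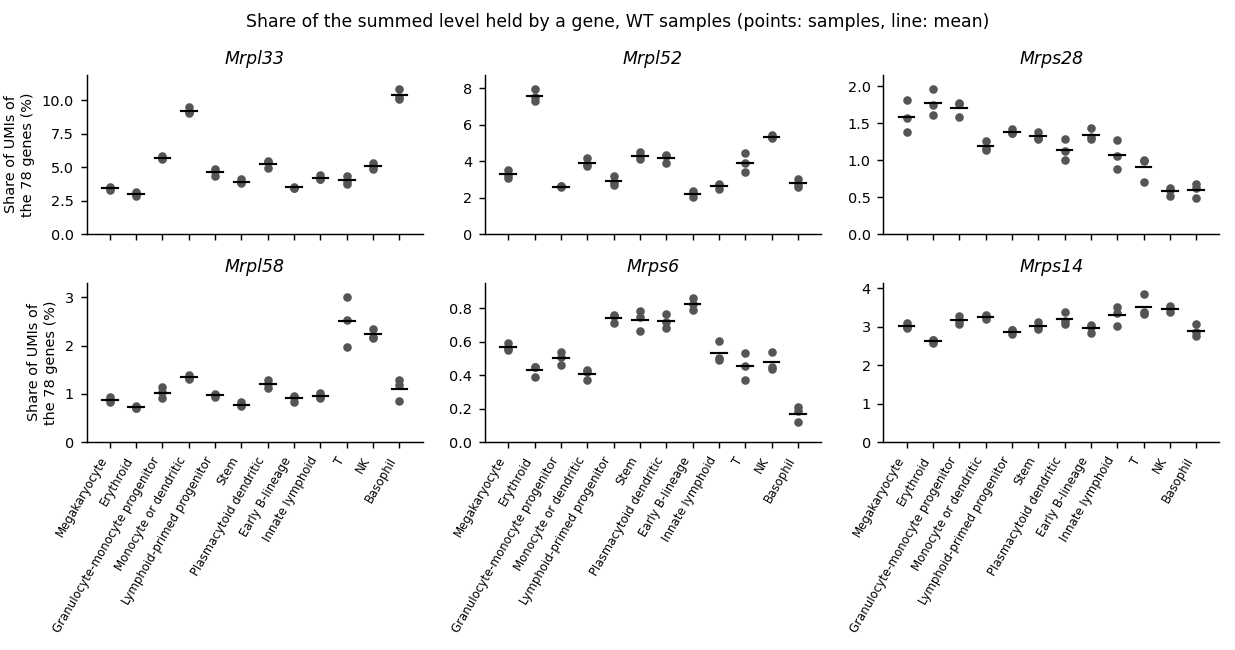
Share of all Mrp UMIs held by each of 6 genes (y axis, percent, from 0) in 12 cell types (x axis, ordered by summed level) in the 3 WT samples, with points for samples and lines for means. Mrpl33 is high in basophils and in monocytes or dendritic cells, Mrpl52 in erythroid cells, Mrpl58 in T and NK cells, and Mrps28 is low in NK cells and basophils, while Mrps14 varies little.

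Within cell types the Mrp genes were again lower in Txnip-KO, and with all samples no Mrp gene was called higher in any type. The median log2 fold change of the Mrp genes was below 0 in all 12 types with at least 60 of them tested, and the median of all genes lay between 0.00097 and 0.024. Of all genes tested, 14% were higher in NK cells, 19.6% in lymphoid-primed progenitors, 13.9% in stem cells, 18.8% in plasmacytoid dendritic cells, 6.88% in basophils, 11.7% in erythroid cells and 8.65% in monocytes or dendritic cells. The same share was 7.82% in early B-lineage cells, 10.2% in granulocyte-monocyte progenitors, 2.67% in innate lymphoid cells, 6.24% in megakaryocytes, 2.46% in neutrophils and 2.19% in T cells. Lymphoid-primed progenitors had the most lower calls, with 67 of 77 lower (median -0.41) against 21.2% of all genes tested there. Stem cells followed with 56 of 77 (median -0.36, all genes 15.8%), plasmacytoid dendritic cells with 52 of 77 (-0.45, 18.6%) and granulocyte-monocyte progenitors with 46 of 77 (-0.36, 11.9%). NK cells had 40 of 77 lower (-0.32, 14.4%), erythroid cells 34 of 77 (-0.26, 13.1%), megakaryocytes 32 of 77 (-0.40, 8.2%) and monocytes or dendritic cells 26 of 77 (-0.32, 10.6%). Fewer fell in early B-lineage cells, 11 of 77 (-0.31, 6.39%), T cells, 2 of 68 (-0.32, 1.63%), and innate lymphoid cells, 2 of 76 (-0.26, 2.53%), where the share called is near the background in T and innate lymphoid cells although the medians are like those of the other types. In basophils 2 of 76 fell (2.63% against 5.97% of all genes) and the median was -0.040. Neutrophils held 186 Mrp UMIs in the smallest sample and only 2 Mrp genes could be tested there, neither called (all genes 1.44% lower). The gate thresholds were set after seeing the data, and with a stricter marker gate the counts were 19 in megakaryocytes, 48 in monocytes or dendritic cells, 21 in erythroid cells and 27 in granulocyte-monocyte progenitors, against 5.27%, 16.2%, 8.96% and 9.06% of all genes. They were 4 in basophils (all genes 5.69%) and none in T and innate lymphoid cells.

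Leaving out 1 library moved several of these counts by more than 1.5 times. All-gene shares are not given for these reduced fits. Whether other genes lost or gained calls to the same extent was not tested. NK cells had 19 without WT 3, and granulocyte-monocyte progenitors 22 without WT 2 and 27 without WT 3. Erythroid cells had 15 and 16 without WT 2 and WT 3, megakaryocytes 14, 11 and 13 without WT 1, 2 and 3, and monocytes or dendritic cells 7, 11 and 15 without WT 2, WT 3 and Txnip-KO 1. Early B-lineage cells had 7 without Txnip-KO 1, 1 without Txnip-KO 3 and none without any single WT sample. In T cells 9 were called without WT 2, 1 without WT 1 and none without any other sample. Innate lymphoid cells had none without Txnip-KO 1 or any single WT sample and 1 without Txnip-KO 2 or 3, and basophils 1 without WT 1 or WT 2. Mrp genes were called higher only in basophils without Txnip-KO 1, where 4 were, in early B-lineage cells without Txnip-KO 2, where 2 were, and in basophils called G1 or fitted with the replicate block, where 1 was. Among the 12 types the median stayed below 0 whichever sample was left out, except in basophils, where it was 0.054 without Txnip-KO 1. With G1 cells only, monocytes or dendritic cells had 3, erythroid cells 11, early B-lineage cells 2 and granulocyte-monocyte progenitors 25 genes lower, with medians of -0.30, -0.22, -0.23 and -0.46, against 3.62%, 3.72%, 2.75% and 7.48% of all genes. The 3 of 77 (3.90%) and 2 of 77 (2.60%) are near those shares. Early B-lineage cells of Txnip-KO also held fewer UMIs, with sample medians of 2847 to 6178 against 9249 to 9690 in WT. The part of this depth in the early B-lineage result was not tested.

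**Figure D5:**
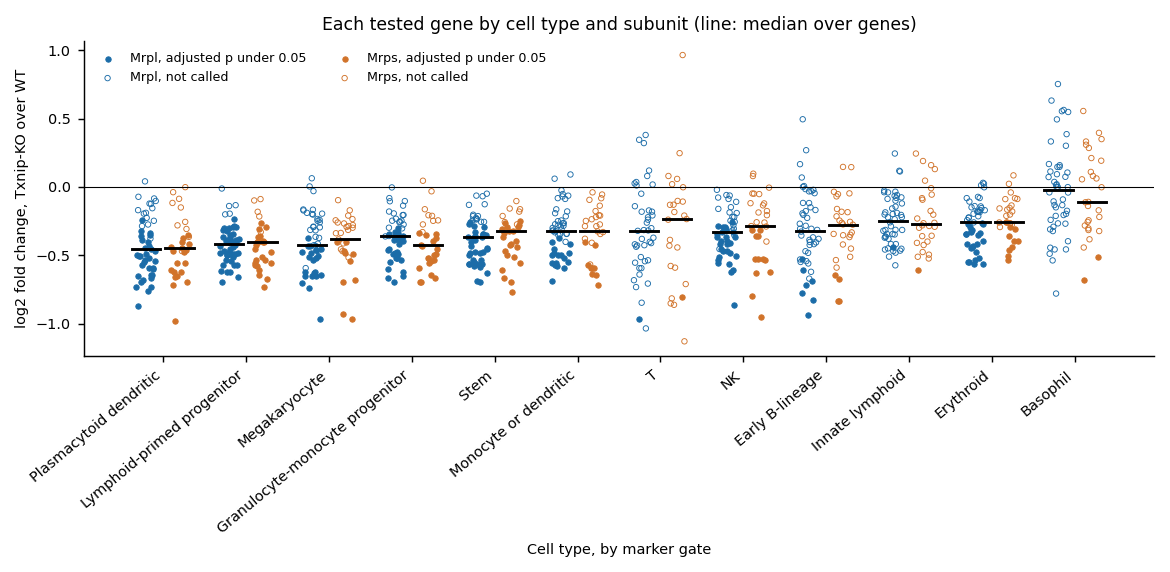
Log2 fold change (Txnip-KO over WT, y axis) of each tested Mrp gene in 12 cell types (x axis, ordered by the median), Mrpl blue and Mrps orange, filled where the adjusted p is under 0.05, with black lines for medians over genes. The medians of both subunits lie below 0 in every type shown, and basophils lie nearest to 0.

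Some genes were called in most types. Mrps28, Mrps25, Mrpl39, Mrps15, Mrpl12 and Mrpl51 fell in 9 of the 12 types each, 28 genes fell in at least 6, 72 in at least 1, and 31 had a log2 fold change below 0 in all 12. Of the 68 Mrp genes tested in every one of the 12 types, 94.1% fell in at least 1, 39.7% in at least 6 and 45.6% were below 0 in all, against 45.5%, 15.2% and 14.3% of the 4477 genes tested in every type. A fall in at least 9 types was found for 6 of these 68 Mrp genes (8.82%) and for 179 of the 4477 genes (3.998%). Never called in any type were Mrps2, Mrps5, Mrps35, Mrpl24 and Mrpl43, and Mrpl53 was not tested by type. In stem cells Mrpl41 stood at 59.6, 71.2 and 68.0 CPM in WT against 39.97, 42.1 and 40.8 in Txnip-KO (log2 fold change -0.69), with no overlap, and Mrpl58 went from 51.8 ± 5.36 to 31.9 ± 0.773 (-0.70). In lymphoid-primed progenitors Mrps15 stood at 94.3, 93.6 and 88.8 CPM in WT against 45.0, 60.5 and 60.02 in Txnip-KO (-0.73), again without overlap, with Mrpl41 at -0.69 and Mrpl18 at -0.62. Adjusted p for these 5 values ran from 0.000107 to 0.000248 by edgeR.

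In plasmacytoid dendritic cells Mrps28 stood at 59.9, 70.3 and 85.3 CPM in WT against 32.4, 40.4 and 36.7 in Txnip-KO (log2 fold change -0.98, SE 0.14), the largest fall among the 3 genes with the smallest p there, beside Mrpl41 (-0.76) and Mrpl42 (-0.73). In NK cells Mrpl54 went from 76.4, 78.6 and 73.4 CPM to 37.7, 54.8 and 34.8 (-0.86, SE 0.13), beside Mrpl51 (-0.62) and Mrps14 (-0.53). These groups did not overlap. Megakaryocytes had their smallest p in Mrps22, from 43.0 ± 4.68 to 22.4 ± 1.27 CPM (SD, n = 3; -0.92), Mrps6 (-0.97) and Mrps28 (-0.69). In granulocyte-monocyte progenitors Mrps28 (-0.70), Mrps12 (-0.70) and Mrps14 (-0.59) led, all of the small subunit, and in monocytes or dendritic cells Mrps28 (-0.71), Mrps14 (-0.59) and Mrpl41 (-0.59). Erythroid cells were led by Mrpl41 (-0.56), Mrpl40 (-0.55) and Mrpl27 (-0.52), all of the large subunit. Over all Mrp genes tested there, the median was -0.26 for Mrpl and -0.26 for Mrps. In granulocyte-monocyte progenitors it was -0.36 for Mrpl and -0.42 for Mrps, and neither difference was tested.

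In the types with few calls the named genes were less firm. Early B-lineage cells had Mrpl17, from 94.1 ± 12.3 to 48.8 ± 5.80 CPM (SD, n = 3; log2 fold change -0.93), Mrpl12 (-0.72) and Mrps28 (-0.67), none of them called when any single WT sample was left out. In T cells only Mrpl51 (-0.96) and Mrps21 (-0.81) passed, in innate lymphoid cells only Mrps15 (-0.61) and Mrpl33 (-0.44), and in basophils only Mrps21, from 179 ± 4.79 to 112 ± 6.98 CPM (-0.68), and Mrps24 (-0.51). The DESeq2 Wald test called neither of the T cell genes nor either of the innate lymphoid genes, and of the basophil genes it did not call Mrps24.

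Whether the change differed between types was tested by an interaction term in a model with samples as blocks, comparing each type with NK cells, the type with the most cells. In basophils 8 of 77 Mrp genes had an effect above that in NK cells and none below, where 3.99% of all genes were above and 4.73% below. The median difference was 0.17 for the Mrp genes and -0.078 for all genes. The smallest p among them was that of Mrps28, at 21.9, 34.2 and 28.7 CPM in WT basophils and 31.3, 51.9 and 32.7 in Txnip-KO basophils, which overlap, and at 29.3, 35.4 and 36.9 against 15.0, 24.6 and 14.1 in NK cells, which do not (difference 1.19, SE 0.23; adjusted p = 0.000232, edgeR). Without WT 1 or Txnip-KO 3 the basophil count was 3, and without WT 3 or Txnip-KO 2 it was 5. Early B-lineage cells had 4 of 77 genes above and 2 below (all genes 4.05% and 3.52%), near the shares of all genes. These calls became 1 in all without Txnip-KO 1 and 2 without Txnip-KO 3. Erythroid cells had 3 of 77 above (all genes 3.17%, with 1.8% below), also near the share of all genes above. Of these calls none were left without any single WT sample or Txnip-KO 3, 1 without Txnip-KO 1 and 2 without Txnip-KO 2. Lymphoid-primed progenitors had 1 above (all genes 1.4%, with 1.09% below), plasmacytoid dendritic cells 1 below (1.65%, with 1.81% above) and granulocyte-monocyte progenitors 1 below (0.7%, with 0.756% above), shares that are near those of all genes, and the granulocyte-monocyte progenitor call was lost whichever sample was left out. None were called by edgeR in stem cells, monocytes or dendritic cells, innate lymphoid cells, megakaryocytes and T cells. There 7, 6, 5, 10 and 4 of the 77 Mrp genes had an unadjusted p under 0.05 by the same test. The share of all genes at that unadjusted threshold is not given, so these counts have no background to be set against. By adjusted p, 0.78% of all genes were above and 0.509% below in stem cells, and 1.64% and 1.03% in monocytes or dendritic cells. These shares were 0.175% and 0.159% in innate lymphoid cells, 0.7% and 0.263% in megakaryocytes, and 0.223% and 0.247% in T cells. The 10 neutrophil genes above NK cells (5.44% of all genes, with 0.294% below) rest on few UMIs. Genes as a whole were shifted upward there, with a median difference of 0.46 for all genes and 0.80 for the Mrp genes.

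The size of the fall across types was set beside 2 measures. Over the 12 types the median log2 fold change had a Pearson r of -0.53 (Spearman rho -0.45) with the WT level and of 0.26 (rho 0.24) with the change in the share of cells called S or G2M, as a description of types that share libraries. Basophils stood apart in both level and change, at 4609 CPM in WT with a median of -0.040, and the correlation without them was not computed. The WT level is also the denominator of the fold change, so these 2 quantities are not independent. Cells called S or G2M went from 57.5% to 38.9% in lymphoid-primed progenitors and from 66.3% to 43.7% in erythroid cells, and were 69.7% and 67.0% in granulocyte-monocyte progenitors. The part of these shares in the Mrp result of each type was not tested. Cytosolic ribosomal protein genes were lower beside the Mrp genes in some types and higher in others. They were lower in granulocyte-monocyte progenitors, 50 of 77 (median -0.26, all genes 11.9%), lymphoid-primed progenitors, 38 of 78 (-0.19, 21.2%), and stem cells, 24 of 77 (-0.15, 15.8%). In the same order 4, 6 and 6 were higher, against 10.2%, 19.6% and 13.9% of all genes. In erythroid cells 2 of 77 were lower and 25 higher (median 0.15), against 13.1% and 11.7% of all genes, while 34 Mrp genes were lower. In NK cells 60 of 77 were lower (median -0.31), against 14.4% of all genes, beside 40 Mrp genes. In basophils 19 cytosolic genes were higher and 1 lower (median 0.23), against 6.88% and 5.97% of all genes.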

How the data were processed

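The deposited files hold whole-number UMI counts per gene and cell from 10x Chromium 3′ libraries of 3 WT and 3 Txnip-KO samples. The authors made them with CASAVA 1.8, Cell Ranger 6.1.1 and Seurat 2.3.4, per the submitters' processing notes. Genome build and annotation: not given in the sources used here.

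Cells with at least 500 genes, at least 1000 UMIs and at most 10% mitochondrially encoded UMIs were kept. The barcodes with the highest Scrublet scores, 0.8% per 1000 barcodes of a sample, were removed as likely doublets. A cell entered a type when enough of that type's markers had a UMI and no other gate took it. The cutoffs were 3 to 5 markers, set after seeing the data. As exceptions, a lineage gate went before the lymphoid-primed gate and the T gate before the NK gate. Counts were summed per sample and type (at least 20 cells in each sample) and tested with edgeR 4.0.16 in R 4.3.3 (filterByExpr, TMM, quasi-likelihood test, Benjamini-Hochberg over all genes tested, threshold 0.05), which was tested on simulated data. Cells were called S or G2M after thinning to 1000 UMIs, with 15 marker genes for each phase. Sensitivity fits used DESeq2 1.42.0, other scaling, filters, gates and cells, and left out each sample in turn. The last was added for the interaction after seeing the data.

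The genes and lists were chosen with earlier results of these data known. Named with values were the 6 Mrpl and 6 Mrps genes with the largest called change and a mean of at least 10 CPM, every gene called higher, the 5 most abundant uncalled genes, 8 genes of special place, and, per type, the 3 smallest p among the called. Per-list examples were the 3 smallest p.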

Additional observations from a re-analysis of the deposited data

Results flagged for a closer look

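For 15 pairs of a gene and a cell type the Txnip-KO effect (log2) differed from that in NK cells by the interaction test of edgeR with Benjamini-Hochberg adjustment over 12570 genes, taking at most the 3 smallest p per type. In basophils the difference was 1.19 for Mrps28 (0.35 in basophils, -0.95 in NK cells), 0.75 for Mrpl54 (-0.00093 and -0.86) and 0.66 for Mrpl52 (0.39 and -0.40). None of the 3 passed the test within basophils, while each fell in NK cells. The basophil gate held 141 to 405 cells per Txnip-KO sample and 578 to 760 per WT sample, and the part of this difference in cell number in the result was not tested.

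In early B-lineage cells the difference was 0.68 for Mrpl43 (0.49 and -0.25), 0.63 for Mrpl54 (-0.18 and -0.86) and -0.63 for Mrps34 (-0.65 and -0.052). Mrps34 shares its strand with Nme3. In erythroid cells it was 0.51 for Mrps28 (-0.44 and -0.95), 0.41 for Mrpl54 (-0.44 and -0.86) and 0.42 for Mrps36 (-0.089 and -0.52). Mrpl52 in lymphoid-primed progenitors differed by 0.40 (-0.011 and -0.40), Mrpl57 in plasmacytoid dendritic cells by -0.46 (-0.68 and -0.22) and Mrpl30 in granulocyte-monocyte progenitors by -0.41 (-0.45 and -0.077). In all of these types the share of Mrp genes called was near that of all genes. In neutrophils the difference was 1.37 for Mrpl33 (0.44 and -0.50), 1.32 for Mrps18c and 1.33 for Mrpl20, of which the last pair had too few counts to be tested in neutrophils alone.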

How the results depend on the processing

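Over all kept cells the count of Mrp genes lower in Txnip-KO was 72 with the DESeq2 Wald test, 69 with DESeq2 size factors, 70 without the filter on low counts, 71 without doublet removal and 71 with a stricter cell filter, against 66. The share of all genes lower in these alternatives is not given, so their counts cannot be set against a background. Thinned to 1000 UMIs per cell it was 23, with a median of -0.27. No Mrp gene was called higher with the DESeq2 Wald test, in G1 cells or after thinning. The large minus small difference was -0.021 after thinning, -0.023 with equal cell numbers per type and -0.025 by structure. Mrpl52 turned to 0.017 over all kept cells without WT 3 (adjusted p = 0.908, edgeR, -0.10 to 0.017 over all left-out samples). Thinned WT levels were 4047 CPM in basophils, 7396 in erythroid cells, 6195 in lymphoid-primed progenitors, 7529 in megakaryocytes, 6081 in monocytes or dendritic cells and 5422 in NK cells.

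By type, the count lower with the DESeq2 Wald test was 1 in basophils and 0 in innate lymphoid and T cells, with no all-gene share given for that test. In G1 cells it was 1 in basophils, 2 in early B-lineage cells, 11 in erythroid cells, 25 in granulocyte-monocyte progenitors, 3 in monocytes or dendritic cells and 1 in T cells, and no fit could be made for megakaryocytes and neutrophils. The basophil count in G1 cells was 1 of 70 (1.43%) against 5.49% of all genes, and that in T cells 1 of 63 (1.59%) against 1.09%. With a stricter marker gate the count lower was 4 in basophils, 21 in erythroid cells, 27 in granulocyte-monocyte progenitors, 0 in innate lymphoid cells, 19 in megakaryocytes, 48 in monocytes or dendritic cells and 0 in T cells. The cause of these moves was not tested.

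Replicate numbers do not pair the samples by the labels, and the correlations of same-numbered samples were 0.10, 0.099 and 0.064, each the highest of its sample, a hint from the data and not the design. With the replicate block 71 genes were lower over all kept cells and 3 in early B-lineage cells, again without an all-gene share to set beside them.

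Leaving out 1 sample at a time gave 44 to 70 genes lower and 0 to 1 higher over all kept cells, medians of -0.44 to -0.34 and a large minus small difference of -0.024 to 0.037. By type it gave 1 to 3 lower in basophils, 0 to 14 in early B-lineage cells, 15 to 42 in erythroid cells, 22 to 51 in granulocyte-monocyte progenitors, 0 to 1 in innate lymphoid cells, 57 to 65 in lymphoid-primed progenitors, 11 to 38 in megakaryocytes, 7 to 31 in monocytes or dendritic cells, 19 to 46 in NK cells, 0 to 0 in neutrophils, 36 to 50 in plasmacytoid dendritic cells, 38 to 54 in stem cells and 0 to 9 in T cells. For the difference from NK cells, an alternative chosen after seeing the data, it gave 3 to 9 in basophils, 1 to 8 in early B-lineage cells, 0 to 2 in erythroid cells, 0 to 0 in granulocyte-monocyte progenitors, innate lymphoid cells, monocytes or dendritic cells and T cells, 0 to 1 in lymphoid-primed progenitors and megakaryocytes, 3 to 8 in neutrophils, 0 to 2 in plasmacytoid dendritic cells and 0 to 3 in stem cells. Shares of all genes in the fits that left out a sample, by type and for the interaction too, are not given. Of the values of named genes under the alternatives, 655 kept direction and side of the threshold, 115 lost the call, 20 gained it and 1 turned.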
